A study of Mus musculus with 12 samples.

Results

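TAp73-/- and TAp73+/+ mouse embryonic fibroblasts were compared on all 12 arrays of the study, with the time of sampling as a block. The aim was to find genes that differed in the same direction in normal oxygen and through hypoxia. Of 10873 genes detected and tested, 4322 (39.7%) met that description: they passed the test at an adjusted p below 0.05, and both TAp73-/- arrays lay above, or both below, both TAp73+/+ arrays at each of the 3 times. These 4322 genes are called constant here. Of them, 2025 also passed a test of the difference at each time, with the spread pooled over all 12 arrays. In TAp73-/- cells 2023 of them were higher (18.6% of genes tested) and 2299 were lower (21.1%). Scaling the arrays on their medians in place of quantiles put 1516 higher and 2686 lower.

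RNA came from cells labelled mouse embryo fibroblast and was measured on Illumina bead arrays. The 6 arrays labelled TAp73-/- are 2 from untreated cells, 2 from cells kept for 4 h and 2 from cells kept for 8 h at 1% oxygen, and the 6 arrays labelled TAp73+/+ have the same 3 conditions with 2 arrays each. All cells were grown in serum-containing medium, and untreated cells were in 21% oxygen. The labels name no embryo, clone, passage or culture for a replicate, so each genotype may stand for a single line of fibroblasts, genotype and line cannot be told apart, and the p-values measure the spread between arrays, which may be technical.

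Trp73 encodes p73, a transcription factor of the p53 family. The TAp73 isoforms carry the transactivation domain and switch on many targets of the family, whereas the isoforms from an internal promoter lack that domain and can oppose them. Embryonic fibroblasts are a mixed mesenchymal culture that keeps the positional transcription factors of the body region it came from, and it can mount an interferon response without immune cells present. In that response secreted interferons act through a complex that includes STAT2 and IRF9 on a DNA element in the promoters of antiviral genes, and IRF7 feeds back to produce more interferon.

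Detection was reached by 19362 to 20133 of 45281 probes per array, and arrays of the same group correlated at 0.991 to 0.997. The first principal component held 58.4% of the variance and separated the genotypes, with scores of 26.7 to 32.2 on TAp73-/- arrays and -34.4 to -24.2 on TAp73+/+ arrays. A score of how probes of the same gene disagree, which may follow RNA quality or labelling, ranged from -0.365 to -0.0935 on TAp73-/- arrays and from -0.104 to 0.590 on TAp73+/+ arrays, and its part in the results was not tested beyond a fit that carried it as a covariate. The 1 probe for Trp73 was detected on 5 of 6 TAp73-/- and on 0 of 6 TAp73+/+ arrays. Its signals overlapped in untreated cells, it may lie outside the deleted part, and it therefore checks nothing about the genotype labels. Of 12 fibroblast markers, Vim, Thy1, Pdgfra, Twist1 and Prrx1 were detected on 12 arrays and Pdgfrb on 11. S100a4 was detected on 3 arrays, Col3a1 on 1, and Col1a1, Col1a2, Dcn and Lum on 0. Of 7 epithelial markers, Epcam, Krt14 and Krt5 were detected on 0 arrays, but Cdh1 and Krt18 on 12 and Krt8 and Cldn4 on 11. The summed signal of the list was 6723 to 8469 on TAp73-/- and 4658 to 5945 on TAp73+/+ arrays. Cdh1, Krt8, Krt18 and Cldn4 were constant and higher. Of the macrophage markers, Ptprc, Adgre1 and Itgam were detected on 0 arrays, Lyz2 on 1 and Csf1r on 8. Of the endothelial markers, Pecam1 and Emcn were detected on 0 arrays, Tek on 1, Cdh5 on 3, Esam on 4 and Kdr on 7. In bulk RNA, a change in the number of cells of a type and a change in RNA per cell cannot be told apart.

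**Figure D1:**
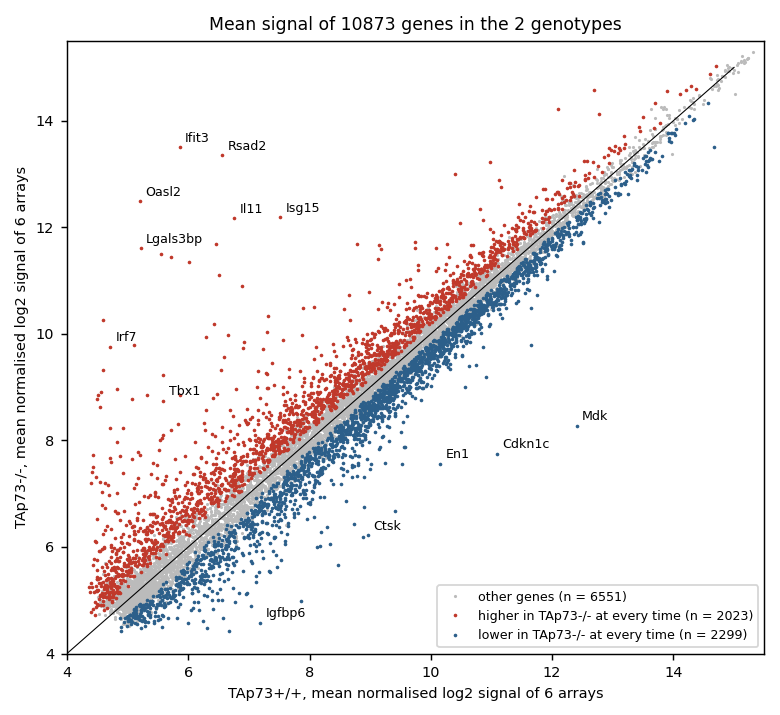
Each point is 1 of 10873 genes, placed by its mean normalised log2 signal over 6 TAp73-/- arrays (vertical axis) and over 6 TAp73+/+ arrays (horizontal axis). Constant genes are coloured, 2023 higher and 2299 lower in TAp73-/-, and the points farthest from the diagonal lie above it, among them Ifit3, Oasl2 and Rsad2.

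Most constant differences were small and the large ones ran mainly upward. The median size was 0.489 on the log2 scale, and 51.5% of the constant genes differed by less than 0.5, against a median standard error of 0.0832. A size of at least 1 was reached by 346 higher genes (3.18% of genes tested) and 155 lower genes (1.43%), together 4.61%, at least 2 by 89 higher and 16 lower genes, and at least 3 by 34 higher and 2 lower genes. Over all genes tested the median difference was -0.025. Passing the test with time as a block took in 6130 genes (56.4%), 2910 higher (26.8%) and 3220 lower (29.6%) in TAp73-/-, of which 191 changed sign between times and 1617 kept their sign with overlapping arrays. A fit of all 12 arrays with a mean per group called the difference in untreated cells for 38.4% of genes, at 4 h for 36.6% and at 8 h for 36.4%. In that fit 2025 constant genes were called at each of the 3 times. Arrays lay apart at every time for 40.2% of genes, called or not. The threshold fell in the midst of small differences: Mrpl10, a mitochondrial ribosomal protein, was the last constant gene at 0.13 (adjusted p = 0.0495, and above 0.05 with any 1 of the 12 arrays left out), and Rbms1, an RNA-binding protein whose arrays also lay apart, missed at -0.15 (adjusted p = 0.0501).

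The genes with the largest rises were antiviral genes that interferon switches on. On the list of interferon-stimulated genes, 39 of 42 tested members (92.9%) were constant and higher, 0 were lower, and the median difference was 2.95 (log2), against 18.6% and -0.025 over all genes. Ifit3, which binds the capped ends of foreign RNA as part of a complex, had a normalised log2 signal of 12.85 at the lowest, 13.46 at the median and 14.09 at the highest on the TAp73-/- arrays. On the TAp73+/+ arrays its signal was 5.60, 5.84 and 6.18. No TAp73+/+ array came near the TAp73-/- range, and the difference was 7.64 (SE 0.119, adjusted p = 1.89e-14).

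The promoters of these genes are shown because a shared element marks the pathway's targets. The 150 bases before the annotated start are given for the 4 genes with the largest differences among the list's constant members that have a single annotated promoter and hold the motif GAAANNGAAA, read on either strand, in that window. This motif has the letters of the interferon-stimulated response element, and capitals mark its matches, which merge where they overlap. The sequences are those of RefSeq in build GRCm38.p6, each written 5' to 3' on the gene's strand: Ifit3 at chr19:34583379-34583528 (+), Rsad2 at chr12:26456453-26456602 (-), Isg15 at chr4:156200819-156200968 (-) and Gbp2 at chr3:142620513-142620662 (+).
Ifit3: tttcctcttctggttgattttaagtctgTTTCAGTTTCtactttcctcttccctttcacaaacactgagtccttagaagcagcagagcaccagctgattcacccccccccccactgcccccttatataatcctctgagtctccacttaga
Rsad2: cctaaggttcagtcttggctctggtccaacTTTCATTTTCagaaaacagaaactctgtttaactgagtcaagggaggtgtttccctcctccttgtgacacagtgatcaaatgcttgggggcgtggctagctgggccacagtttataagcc
Isg15: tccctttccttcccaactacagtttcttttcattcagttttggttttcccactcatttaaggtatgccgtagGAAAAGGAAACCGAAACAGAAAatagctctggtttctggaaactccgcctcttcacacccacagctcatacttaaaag
Gbp2: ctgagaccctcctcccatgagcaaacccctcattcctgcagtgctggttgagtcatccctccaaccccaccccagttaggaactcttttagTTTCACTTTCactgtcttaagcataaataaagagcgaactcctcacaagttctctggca
The match in Ifit3 and in Rsad2 reads on the opposite strand and ends 112 and 110 bases before the start, while Isg15 holds 3 overlapping matches on the gene's own strand. Within the 300 bases around the start, the motif was in 3.44% of 32851 promoters of all genes and in 3.72% of the 8848 tested genes with a promoter. Of the 34 genes that were constant and higher by at least 3, 29 had a promoter and 14 of these held the motif (48.3%). For those higher by at least 1, it was in 40 of 255 with a promoter (15.7%). Outside the interferon list and the MHC class I list described below, it was in 20 of 216 (9.26%). Such a match describes letters and is no measurement of binding.

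The antiviral effectors that came next had smaller differences than Ifit3, still without overlap. Oasl2, a relative of the oligoadenylate synthetases, had signals of 12.11 to 12.78 (median 12.47) on TAp73-/- arrays and 4.98 to 5.57 (median 5.06) on TAp73+/+ arrays, a difference of 7.28 (SE 0.0717, adjusted p = 2.27e-16). Rsad2, or viperin, which makes a chain-terminating nucleotide, had 12.95 to 13.65 (median 13.40) on TAp73-/- and 6.16 to 7.01 (median 6.55) on TAp73+/+ arrays, a difference of 6.79 (SE 0.1). Cmpk2, the kinase encoded beside Rsad2, differed by 5.95. In each of these genes the lowest TAp73-/- array lay above the highest TAp73+/+ array by more than the range within either genotype. Lgals3bp, a secreted glycoprotein, differed by 6.39, Gbp3, a guanylate-binding GTPase that attacks the vacuoles of intracellular parasites, by 5.73, and Apol9a, an apolipoprotein L gene, was at least 19.1-fold higher. Trim30a, a regulator of innate signalling, was detected on 6 TAp73-/- and 0 TAp73+/+ arrays and was at least 36.8-fold higher, measured against the lowest detected signal of the TAp73+/+ arrays.

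**Figure D2:**
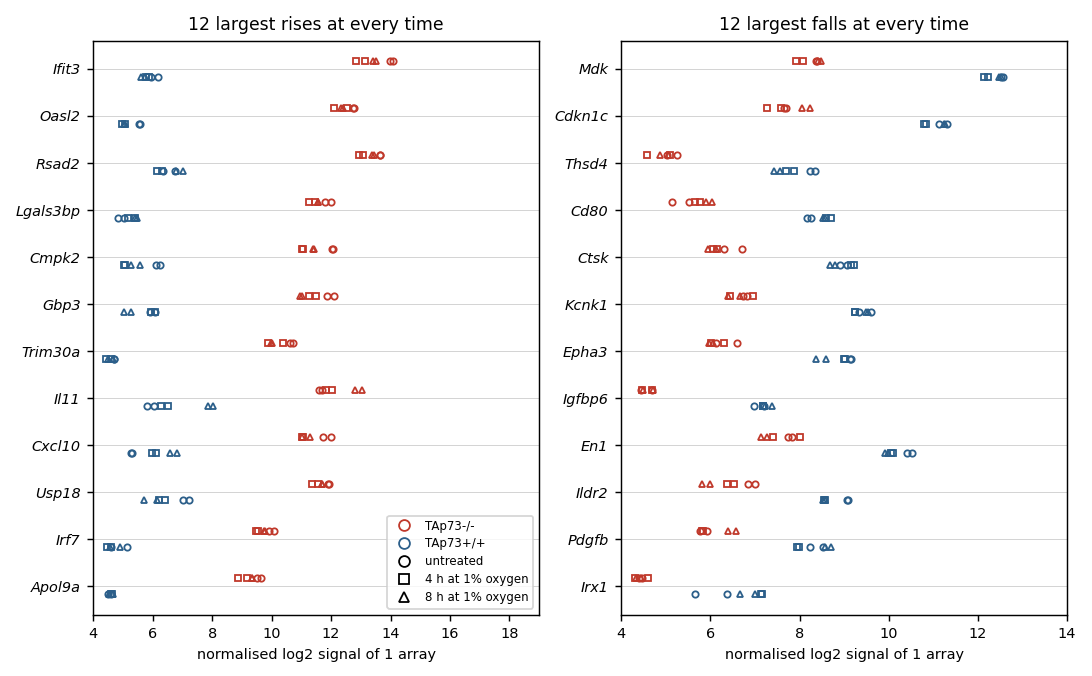
Normalised log2 signal (horizontal axis) of each of the 12 arrays for the 12 constant genes with the largest rise (left) and the 12 with the largest fall (right), TAp73-/- in red above TAp73+/+ in blue, with a marker for each time. In Ifit3 the TAp73-/- arrays sit between 12.85 and 14.09 and the TAp73+/+ arrays between 5.60 and 6.18, and in Mdk the TAp73-/- arrays sit between 7.92 and 8.48 and the TAp73+/+ arrays between 12.13 and 12.56.

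The transcription factors and regulators of the pathway were higher with its targets. Irf7 had signals of 9.48 to 10.07 on TAp73-/- arrays and 4.45 to 5.15 on TAp73+/+ arrays, where it was detected on 1 of 6, and it differed by 5.05 (SE 0.0934, adjusted p = 7.97e-14). Stat2, a subunit of the factor that carries the interferon signal, had 7.98 to 8.38 on TAp73-/- and 5.36 to 5.94 on TAp73+/+ arrays, and its difference was 2.47, 2.50 and 2.47 in untreated cells, at 4 h and at 8 h. Its DNA-binding partner Irf9 differed by 2.60 and Irf1 by 1.42, both chosen for mention after their values were seen. Usp18, which removes ISG15 from proteins and damps the receptor, differed by 5.23, and Isg15, the ubiquitin-like modifier itself, by 4.68. The 3 list members that were not constant were Zbp1, a sensor of left-handed nucleic acid, at -0.16 (adjusted p = 0.205), Irgm1 at 0.19 and Parp9 at 0.57. Irgm1 and Parp9 passed the test, but their arrays overlapped at 1 or more times. Irgm1 missed the threshold when any 1 of 8 arrays was left out, and 2 other probes for Irgm1 differed by 2.46 and 4.43. The 1 other probe for Zbp1 differed by 0.568, the opposite sign.

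Antigen presentation on MHC class I, a process that interferon also raises, moved the same way. On its list 20 of 24 tested genes (83.3%) were constant and higher, against 18.6% over all genes. The list had 0 lower, against 21.1% over all genes, and a median of 1.49. Psmb8, a catalytic subunit of the immunoproteasome, had signals of 8.51 to 8.95 (median 8.91) on TAp73-/- and 5.03 to 5.85 (median 5.17) on TAp73+/+ arrays, a difference of 3.52 (SE 0.113, adjusted p = 2.32e-11). The groups did not overlap. Psmb9 differed by 2.52, H2-K1, a classical heavy chain, by 2.51, and B2m, the shared light chain, by 1.35. Nlrc5, which drives transcription of the class I genes, was detected on 6 TAp73-/- and 0 TAp73+/+ arrays and was at least 4.3-fold higher. Near-identical H2 genes can share probe signal.

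Among inflammatory cytokines, chemokines and NF-kappaB targets, 15 of 28 tested genes (53.6%) were constant and higher and 1 was lower, with a median of 0.39. All genes had shares of 18.6% higher and 21.1% lower. Il11, a cytokine of the gp130 family, had signals of 11.61 to 13.05 (median 11.93) on TAp73-/- arrays and 5.81 to 8.03 (median 6.39) on TAp73+/+ arrays. Its values spread more than those of Ifit3 in both genotypes, without overlap, and the difference was 5.42 (SE 0.114, adjusted p = 2.91e-13). Ccl5, a chemokine for T cells, differed by 3.76. Ptges, which makes prostaglandin E2, was at least 7.53-fold higher, and Ptgs2, the cyclooxygenase upstream of it, at least 3.05-fold higher, both undetected on all TAp73+/+ arrays. The member that fell was Cxcl12, a chemokine of stromal cells, with 5.10 to 5.70 on TAp73-/- and 6.72 to 7.58 on TAp73+/+ arrays and a difference of -1.77 (SE 0.124).

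The unfolded protein and amino acid stress list held 19 of 29 tested genes (65.5%) that were constant and higher and 1 that was lower, with a median of 0.59. Shares over all genes were 18.6% higher and 21.1% lower. Hspa5, the main chaperone of the endoplasmic reticulum, had signals of 9.04 to 10.08 (median 9.80) on TAp73-/- and 7.04 to 7.47 (median 7.21) on TAp73+/+ arrays, a difference of 2.49 (SE 0.126, adjusted p = 2.77e-09). Xbp1, the transcription factor of the IRE1 arm, differed by 1.60, at 1.45, 1.63 and 1.72 over the 3 times. Chac1, which degrades glutathione, and Ddit3, the stress factor CHOP, differed by 1.97 and 1.81. The lower member was Atf5 at -0.43. The score of probe disagreement moved with this list: with it as a covariate 5 members were called higher and 4 lower, the median was 0.28, Hspa5 and Xbp1 still passed at 2.49 and 1.74, and Chac1 and Ddit3 did not, at 0.58 (adjusted p = 0.32) and 1.00 (adjusted p = 0.17).

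Enzymes of lipid synthesis and of xenobiotic metabolism also ran upward. Of 23 tested sterol and fatty acid synthesis genes, 11 (47.8%) were constant and higher and 2 were lower, with a median of 0.28. The desaturases Fads2 and Scd2 differed by 1.04 and 1.03, and Srebf2, a master regulator of sterol synthesis, by -0.56. Of 29 NRF2 and xenobiotic metabolism genes, 12 (41.4%) were constant and higher and 4 (13.8%) were lower, with a median of 0.42. Cbr3, a carbonyl reductase, differed by 1.28, and Gstt3, a glutathione transferase, by 1.23, while Aldh1a3, which makes retinoic acid, differed by -1.19. With the probe score as a covariate 4 members of the NRF2 list were called higher and 1 lower, and its median was 0.064. Of 12 retinoid, steroid and lipid-mediator genes 5 (41.7%) were higher and 1 (8.3%) was lower. Over all genes the shares were 18.6% higher and 21.1% lower.

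**Figure D3:**
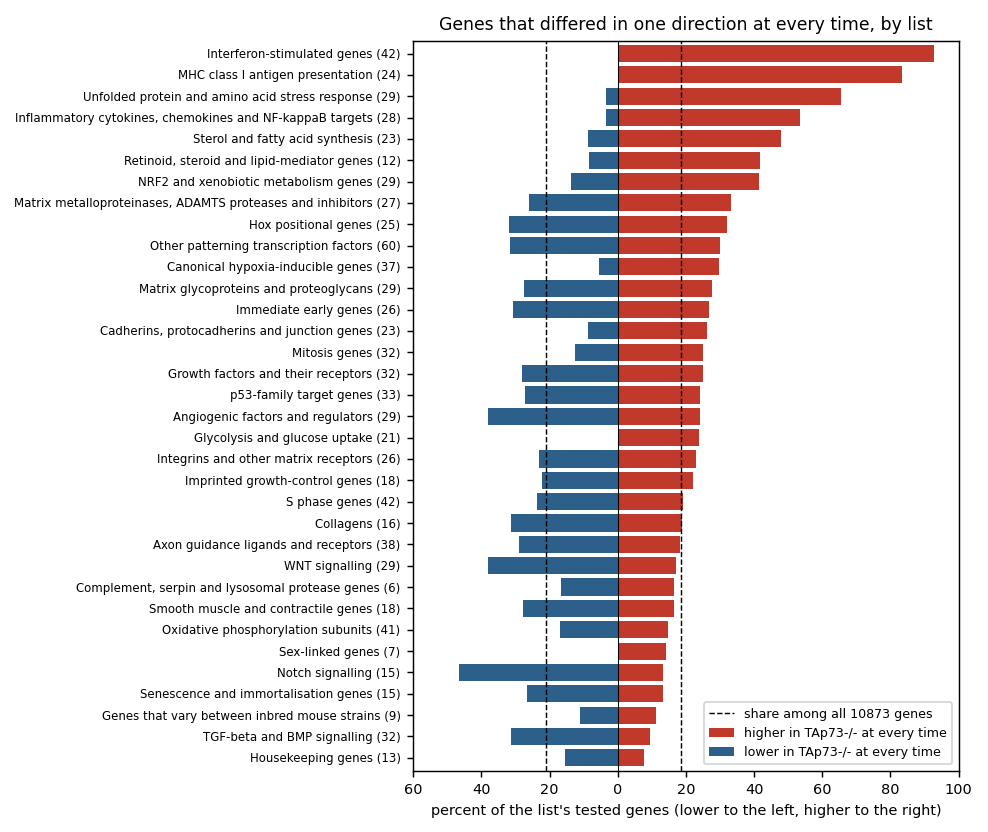
Share of each list's tested genes (number in brackets) that were constant and higher in TAp73-/- (red, to the right) or lower (blue, to the left). Dashed lines mark the shares over all 10873 genes, 18.6% and 21.1%, and the interferon list reaches 92.9% on the higher side.

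Positional transcription factors differed in both directions, often by large amounts. Of 60 tested patterning factors, 18 (30.0%) were constant and higher and 19 (31.7%) lower, against 18.6% and 21.1% over all genes. A size of at least 1 was reached by 8 each way, where the shares over all genes were 3.18% higher and 1.43% lower. Tbx1, a T-box factor of the pharyngeal region, had signals of 8.60 to 8.82 (median 8.79) on TAp73-/- and 5.29 to 6.15 (median 5.49) on TAp73+/+ arrays, a difference of 3.15 (SE 0.0898). Pax1, of the sclerotome and pharyngeal pouches, was undetected on all TAp73+/+ arrays and was at least 5.42-fold higher, and Foxf1, of visceral mesoderm, at least 2.97-fold. In each of the 3 factors every TAp73-/- array lay above every TAp73+/+ array. In the other direction, En1, of the midbrain-hindbrain boundary and ventral limb, had 7.13 to 8.01 (median 7.57) on TAp73-/- and 9.92 to 10.52 (median 10.07) on TAp73+/+ arrays, a difference of -2.60 (SE 0.0995). The Iroquois factors on the list, Irx1, Irx2, Irx3 and Irx5, were all tested, constant and lower. Irx5 differed by -1.96, Irx2 by -1.71 and Irx3 by -0.81, and Irx1 was undetected on all TAp73-/- arrays and at least 3.15-fold lower. Fezf1, a forebrain factor off the list that was picked after its value was seen, differed by 3.30.

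Among the Hox genes, constant members were higher in Hoxb and lower in Hoxc, and went both ways in Hoxa. Of 25 tested, 8 (32.0%) were constant and higher and 8 (32.0%) lower, against 18.6% and 21.1% over all genes. In Hoxb 4 of 7 tested genes were constant and higher and 0 lower, and in Hoxc 0 of 5 were higher and 4 lower. The Hoxb genes that were not constant differed by -0.43 to 0.12. With median scaling the Hoxb counts were 3 higher and 1 lower, and the Hoxc counts 0 and 4. In Hoxa 4 of 8 were higher and 3 lower, and in Hoxd 0 of 5 were higher and 1 lower. Hoxb6 had signals of 9.21 to 9.63 on TAp73-/- and 7.55 to 7.74 on TAp73+/+ arrays, a difference of 1.68 (SE 0.0781, adjusted p = 1.18e-09), and Hoxb9 differed by 1.30. Hoxc6 had 10.37 to 10.63 on TAp73-/- and 11.52 to 11.78 on TAp73+/+ arrays, a difference of -1.17 (SE 0.069, adjusted p = 1.4e-08), and Hoxc9 differed by -0.82. Within Hoxa, Hoxa2 differed by 1.59, Hoxa5 by 1.20, Hoxa7 by 0.29 and Hoxa11 by 0.62, while Hoxa4 differed by -0.25, Hoxa9 by -0.61 and Hoxa13 by -0.47. The Hoxb cluster lies on chromosome 11, whose genes ran higher as a whole, as described further on.

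The largest fall among the constant genes was that of Mdk, the heparin-binding growth factor midkine. Its signals were 7.92 to 8.48 (median 8.38) on TAp73-/- arrays and 12.13 to 12.56 (median 12.49) on TAp73+/+ arrays, and it differed by -4.13 (SE 0.0581, adjusted p = 8.06e-15), with -4.15, -4.18 and -4.05 at the 3 times. Other probes for Mdk differed by -3.51 and -0.55. Among growth factors and their receptors 8 of 32 were constant and higher and 9 lower, a share of 53.1% against 39.7% over all genes. Igfbp6, which binds IGF2, was undetected on all TAp73-/- arrays and at least 4.51-fold lower. Pdgfb, a mitogen for mesenchymal cells, had 5.77 to 6.58 on TAp73-/- and 7.95 to 8.70 on TAp73+/+ arrays, a difference of -2.28 (SE 0.0846), and Fgfr2, a receptor for fibroblast growth factors, differed by -1.78. Pdgfra, Gdnf, Bdnf and Egfr were the largest rises on the list, at 1.37, 1.31, 1.15 and 1.12, although another probe for Pdgfra differed by -0.32.

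Cdkn1c, the imprinted cyclin-dependent kinase inhibitor p57, followed with 7.27 to 8.24 (median 7.68) on TAp73-/- and 10.80 to 11.30 (median 11.19) on TAp73+/+ arrays, a difference of -3.34 (SE 0.0847, adjusted p = 2.08e-12). Of 18 imprinted genes 4 (22.2%) were constant and higher and 4 (22.2%) lower, against 18.6% and 21.1% over all genes. Dlk1, a Notch ligand relative that restrains fat cell formation, differed by -1.21, and Asb4, detected on 0 TAp73+/+ arrays, was at least 3.92-fold higher. Other leading falls were Thsd4, a matrix protein that promotes fibrillin assembly (-2.88), Cd80, a costimulatory ligand (-2.80), Ctsk, the collagen-degrading cathepsin K (-2.75), Kcnk1, a potassium channel (-2.74), Epha3, an ephrin receptor (-2.70), and Ildr2 (-2.30). Another probe for Cd80 differed by only -0.36.

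In the WNT, Notch and TGF-beta and BMP lists more genes were constant and lower than higher, against 21.1% lower and 18.6% higher over all genes. In WNT signalling 11 of 29 tested genes (37.9%) were constant and lower and 5 (17.2%) higher, with a median of -0.22. Wnt7b had signals of 8.58 to 9.42 on TAp73-/- and 10.28 to 10.98 on TAp73+/+ arrays, a difference of -1.56 (SE 0.0814), and the receptor Fzd3 differed by -1.06. The members that rose were led by Dkk3, of a family of secreted WNT modulators, at 2.46, and by the ligand Wnt10a at 1.68. In Notch signalling 7 of 15 (46.7%) were lower and 2 higher, with a median of -0.25, with Hes1, its classical target, at -0.47 and the ligand Jag2 at 1.16. In TGF-beta and BMP signalling 10 of 32 (31.2%) were lower and 3 higher, with a median of -0.17, and the BMP target Id2 differed by -1.68. With the probe score as a covariate 4 WNT, 3 Notch and 4 TGF-beta and BMP genes were called lower and 3, 1 and 3 higher, with medians of -0.35, -0.25 and -0.22. Angiogenic factors had 11 of 29 (37.9%) lower and 7 (24.1%) higher, with a median of -0.031 that was near the -0.025 of all genes, and with Eng, the TGF-beta co-receptor endoglin, at -1.78. In axon guidance 11 of 38 (28.9%) were lower and 7 (18.4%) higher, with a median of -0.060, and with Unc5b at -1.48 and Plxnd1 at -1.44, while Sema3a, a repellent ligand, was at least 2.15-fold higher.

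In the extracellular matrix, single genes stood out in both directions. Mmp2, gelatinase A, had signals of 8.61 to 9.00 on TAp73-/- and 5.65 to 6.10 on TAp73+/+ arrays, a difference of 2.99 (SE 0.0882, adjusted p = 1.01e-11). Col8a1, a short-chain collagen, differed by 2.11, whereas Col4a1 and Col4a2, the paired chains of basement membrane collagen, differed by -0.85 and -0.88. Loxl1, a cross-linking enzyme of elastic fibres, differed by -1.60, Tgfbi by -1.49 and Mfap2 by -1.39. As lists they had shares to be read against 18.6% higher and 21.1% lower over all genes. Of 16 collagens 3 (18.8%) were constant and higher and 5 (31.2%) lower, and of 29 matrix glycoproteins 8 (27.6%) were higher and 8 lower. Of 27 proteases and inhibitors 9 (33.3%) were higher and 7 (25.9%) lower, and of 26 integrins and matrix receptors 6 (23.1%) were higher and 6 lower. Of 23 cadherin and junction genes 6 (26.1%) were higher and 2 (8.7%) lower, and of 18 contractile genes 3 (16.7%) were higher and 5 (27.8%) lower.

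Of 33 tested target genes of the p53 family, 8 (24.2%) were constant and higher and 9 (27.3%) lower, with a median of 0.0079. The shares over all genes were 18.6% and 21.1%. Both directions together made 51.5% of this list, against 39.7% over all genes. With median scaling 6 were higher and 11 lower, with a median of -0.050. Jag2, Tigar, Perp and Fas were the largest rises at 1.16, 0.66, 0.61 and 0.53, and Gadd45b and Bbc3, which encodes the death protein PUMA, the largest falls at -0.75 and -0.49. Cdkn1a, the p21 cell-cycle inhibitor, had -0.16 (adjusted p = 0.0232) and was constant, but it missed the threshold without TAp73-/- untreated replicate 1 (adjusted p = 0.0528), without TAp73+/+ 4 h replicate 2 (adjusted p = 0.0638) and with the replicate number as a block (adjusted p = 0.0613). With the probe score as a covariate Tigar, Perp, Fas, Bbc3 and Cdkn1a did not pass, at an adjusted p of 0.42, 0.166, 0.23, 0.424 and 0.634. Their differences in that fit were 0.34, 0.78, 0.57, -0.28 and -0.11. The median standard error over all genes was 0.204 in that fit, against 0.0832 without the score. Of 15 senescence genes 2 were higher and 4 lower, with Cdkn2c at -0.88. Another probe for Gadd45b differed by 0.0013.

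Of 37 tested hypoxia-inducible genes, 11 (29.7%) were constant and higher and 2 were lower, with a median of 0.13. Adm, the vasodilator adrenomedullin, differed by 1.34, 1.48 and 0.87 at the 3 times, and Stc2, a secreted stanniocalcin, by 1.04, 1.04 and 1.49. Vegfa, the chief angiogenic target, had -0.05 (adjusted p = 0.559). The shares over all genes were 18.6% higher and 21.1% lower. With the probe score as a covariate 7 members of the hypoxia list were called higher and 5 lower, and its median was -0.0069. Among lists of general cell function, immediate early genes had 57.7% constant members, 7 of 26 higher (26.9%) and 8 lower (30.8%), above the 39.7% over all genes. Of 42 S phase genes 8 were constant and higher and 10 lower, of 32 mitosis genes 8 and 4, of 41 oxidative phosphorylation subunits 6 and 7, of 21 glycolysis genes 5 and 0, and of 13 housekeeping genes 1 and 2, the one that rose being B2m. With median scaling the S phase counts were 2 higher and 13 lower and the housekeeping counts 1 and 6. Without the genes of chromosome 11, described further on, the mitosis counts were 4 and 4 of 27 and the S phase counts 5 and 10 of 39. Of 9 genes known to vary between inbred strains 1 was higher and 1 lower, and of 6 complement and lysosomal protease genes 1 and 1. Of 7 sex-linked genes only Eif2s3y of the Y chromosome was constant, at 1.40, another of its probes being at 0.19.

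A few of the largest constant rises were on none of the interferon or antigen presentation lists and were picked after their values were seen. Xlr4a, an X-linked lymphocyte-regulated gene, had 9.54 to 10.03 on TAp73-/- and 4.78 to 5.51 on TAp73+/+ arrays, a difference of 4.68 (SE 0.101). Zbtb32, a zinc finger repressor known in lymphocytes, was detected on 6 TAp73-/- and 0 TAp73+/+ arrays and was at least 14.3-fold higher, with another probe at 0.86.

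Whether the size of the difference depended on time was asked with an F test of genotype by time. It passed for 45 genes (0.414%), of which 22 were constant, and 1968 genes had an unadjusted p below 0.05. With 2 arrays in a group, a gene that did not pass is not shown to have kept the same size of difference. The count was 211 without background correction, 154 with an offset of 50 and 212 in the series matrix values. Of the 22, 15 had their largest difference in untreated cells, 0 at 4 h and 7 at 8 h. Cxcl10, a chemokine that interferon induces, differed by 6.56 untreated, 5.01 at 4 h and 4.45 at 8 h (adjusted p of the F test 0.00429). Stress genes had no common order of the times. Chac1 differed by 2.96, 1.32 and 1.64 (0.00871), Trib3, a pseudokinase, by 2.40, 0.71 and 1.63 (0.0054), and Ddit3 by 1.93, 0.96 and 2.54 (0.0178), each least apart at 4 h, whereas Atf3, a stress-induced transcription factor, differed by 1.89, 1.12 and 0.43 (0.0126). Espn, an actin-bundling protein, differed by -2.29, -1.39 and -0.85 (0.0054), and Unc13a, a synaptic priming factor, by 0.24, 1.25 and 1.72 (0.0054). At the other extreme, Crhbp, which binds corticotropin-releasing hormone, differed by 1.02, 1.02 and 1.03, Tnfrsf4, the receptor OX40, by -2.19, -2.15 and -2.13, and Klhl21, an adaptor of a ubiquitin ligase, by -1.86, -1.85 and -1.91. The count of 45 also moved with single arrays. It was 100 without TAp73+/+ untreated replicate 2 and 7 without TAp73-/- untreated replicate 2, and leaving out any other array but TAp73-/- 4 h replicate 1 gave 9 to 26.

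**Figure D4:**
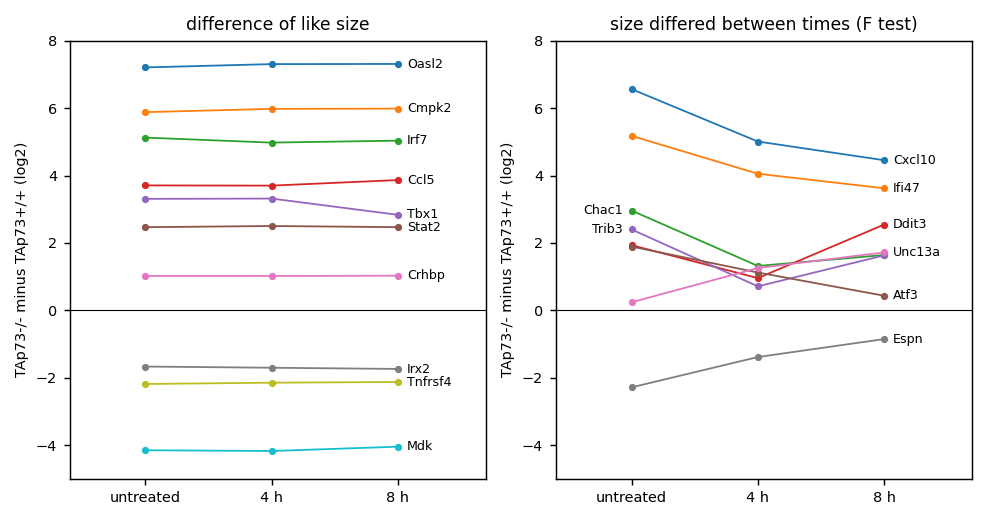
Difference between TAp73-/- and TAp73+/+ means (log2, vertical axis) in untreated cells, at 4 h and at 8 h, each point the difference of 2 arrays and 2 arrays. Left, genes of nearly steady difference, such as Stat2 at 2.47, 2.50 and 2.47, and right, genes that passed the F test, such as Cxcl10 at 6.56, 5.01 and 4.45.

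On chromosome 11, 395 of 925 tested genes (42.7%) were constant and higher and 42 were lower, and 78.2% had a difference above 0. The median difference of its genes was 0.244 in untreated cells, 0.250 at 4 h and 0.253 at 8 h, while the medians of the other autosomes and the X chromosome lay between -0.098 and 0.042. After centring each gene within its time, the chromosome 11 median was 0.114 to 0.150 on TAp73-/- arrays and -0.140 to -0.103 on TAp73+/+ arrays, without overlap. The shift ran along the whole chromosome: in gene order of GRCm38.p6, 46 of 46 windows of 20 tested genes had a median above 0, from 0.0072 to 0.447, against 151 of 487 windows on the other chromosomes. Chromosome 11 held 19.5% of all constant higher genes. Without it, 1628 of 9948 genes (16.4%) were constant and higher and 2257 (22.7%) lower, and the interferon list had 32 of 34 members higher. With undetected genes kept in, the median of chromosome 11 was 0.0813.

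**Figure D5:**
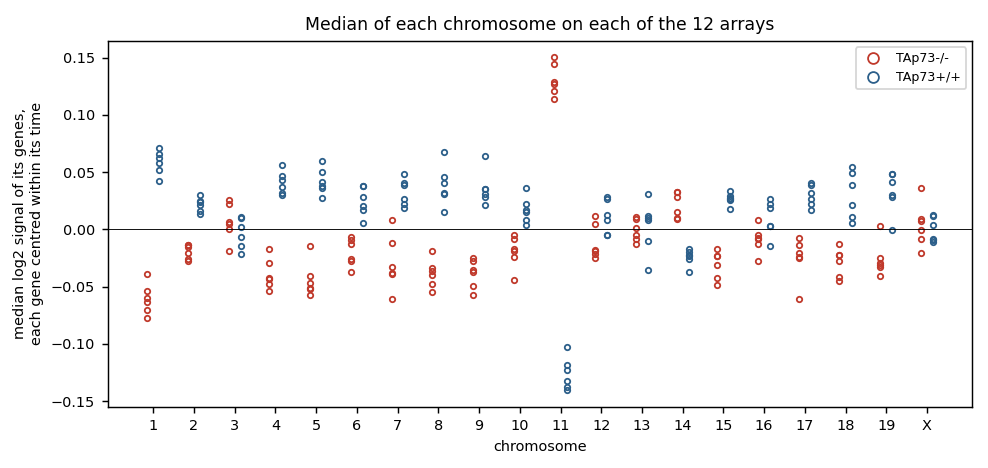
Median log2 signal of the tested genes of each chromosome on each array, each gene centred on the mean of the 4 arrays of its time, TAp73-/- in red left of TAp73+/+ in blue. On chromosome 11 the 6 TAp73-/- arrays lie between 0.114 and 0.150 and the 6 TAp73+/+ arrays between -0.140 and -0.103.

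Beside Trp73 on chromosome 4 more genes were lower than higher. Among the 40 annotated genes on each side of it, 19 were tested, 2 were constant and higher and 9 lower (57.9% together, against 39.7% over all genes), and the median was -0.31. Over the whole of chromosome 4, 93 of 690 tested genes (13.5%) were constant and higher and 169 (24.5%) lower, with a median of -0.088. The window of 20 tested genes that spans Trp73, Klhl21 to Faap20, had a median of -0.31, with 3 genes constant and higher and 10 lower. The window before it, Cenps to Phf13, had a median of -0.30, with 2 higher and 11 lower. Lower window medians were met only far from Trp73, on chromosome 1 (-0.37 and -0.32) and on chromosome 5 (-0.35). With 100 genes on each side, a width added after the data were seen, 64 were tested, 10 were higher and 25 lower (54.7%), and the median was -0.16. Tnfrsf4 had signals of 5.73 to 6.37 on TAp73-/- and 7.96 to 8.41 on TAp73+/+ arrays, a difference of -2.15 (SE 0.0715). Klhl21 had 9.64 to 9.99 on TAp73-/- and 11.42 to 11.78 on TAp73+/+ arrays, a difference of -1.88 (SE 0.0656). Espn, at -1.51, lies inside the narrower window, where 2 other probes for it differed by -0.76 and 0.047. Isg15, at 4.68, lies within the wider window and rose. Genes beside a targeted allele can carry the sequence of the strain the allele was made in, and the labels give no strain, so linked sequence and loss of TAp73 cannot be told apart here.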

How the data were processed

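Per the file headers, the deposited non-normalised table gives for each array the intensity signal of 45281 probes and, beside it, the detection p-value. Processed intensity signals in the deposited series matrix, attributed to Partek by the submitters' processing notes, served as an alternative. Signals were background-corrected by normexp (offset 16), then quantile-normalised and taken to log2 by the neqc function (limma 3.58.1, R 4.3.3). A probe was kept if both arrays of any group detected it at p below 0.05 (21223 probes), and 17891 of these had 1 symbol, updated through Entrez to GRCm38.p6. Each gene is given by its probe of highest mean signal. limma was fitted with time and genotype as terms (residual degrees of freedom 8, prior 5.14), with Benjamini-Hochberg adjustment over 10873 genes. A fit of all 12 arrays with separate means for the 6 groups gave the F test. The same fit gave the tests at each time, so their spread is pooled over the times. Differences are TAp73-/- minus TAp73+/+ on the log2 scale. A fold against a genotype with the gene undetected on all 6 arrays is a bound, taken against the lowest detected signal of each array. The score of probe disagreement is the first principal component (50.2% of variance) of the deviations of probes from their gene's mean.

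Genes were named by a rule on size (the 12 largest each way, up to 4 each way per list), steadiness, the F test and distance from Trp73. Those outside it, such as Irf9, Irf1, Isg15, Gbp2, Irgm1, Parp9, Zbp1, Irx3, most of the Hoxa genes, Fezf1, Xlr4a and Zbtb32, were chosen after their values were seen. The members and lists were chosen with earlier results of these data known. The fit was tested on simulated data. The number of arrays limits the precision.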

Additional observations from a re-analysis of the deposited data

Results flagged for a closer look

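The genotype difference depended on time, by the F test of genotype by time, for 45 genes. Among those named, the adjusted p of that test was 0.00429 for Cxcl10, 0.0054 each for Espn, Trib3 and Unc13a, 0.00871 for Chac1, 0.0126 for Atf3 and 0.0178 for Ddit3. Besides the 10873 named genes, 3332 probes past the detection filter had no single gene symbol and enter no comparison above. Of these, 1281 differed in the same direction at every time with an adjusted p below 0.05, 421 higher and 860 lower in TAp73-/-, and 76 and 110 of them by at least 1 on the log2 scale.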

How the results depend on the processing

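With the probe score as a covariate the median standard error was 0.204 and 1776 genes were called, 1038 higher and 738 lower. Of the constant genes 1313 were then called, 859 higher and 454 lower, and 283 turned sign, but of the 501 that differed by at least 1, 426 were still called and 4 turned. Requiring a call at each time as well, in the fit with a mean per group, left 2025 constant genes, 1043 higher and 982 lower. A difference of at least 1 was reached by 225 genes without background correction, 293 with an offset of 50 and 226 in the series matrix values. Leaving out each array in turn gave 5643 to 6087 called genes (2702 to 2884 higher, 2926 to 3207 lower), 4392 to 4739 constant genes (2081 to 2238 higher, 2293 to 2509 lower) and 488 to 528 of at least 1. Without an array, 1 array is set against 2 at its time, so lying apart is easier there. The 4322 constant genes of all arrays fall below that range.

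The count of genes whose difference depended on time, tried under alternatives chosen after seeing the data, was 7 to 100 with each array left out. It was 211 without background correction, 154 with an offset of 50, 212 in the series matrix values, 81 with detection on all 12 arrays, 9 at an adjusted p below 0.01, and 1, 16 and 10 without the untreated, the 4 h and the 8 h arrays. The cause of these moves was not tested. Of the 114 named genes that passed the test, 20 did not with the probe score: Atf3, Atf5, Bbc3, Bdnf, Cdkn1a, Chac1, Ddit3, Espn, Fas, Hes1, Hoxa4, Hoxa7, Hoxa13, Irgm1, Mrpl10, Parp9, Perp, Srebf2, Tigar and Trib3. Irgm1 and Mrpl10 also lost their calls with the replicate block and with median scaling, Hoxa7 with median scaling and without the 4 h arrays and Hoxa4 without the 4 h or the 8 h arrays, and Rbms1 passed the test with median scaling, with an offset of 50 and in the series matrix values. Among the genes named with a difference, Rbms1 was at 0.060 and Zbp1 at 0.21 with the mean over probes, and Vegfa at 0.047 without the 8 h arrays, each above 0 where the main value is below it. Replicate numbers do not pair the arrays: deviations of arrays with the same number correlated at -0.019, 0.0048 and 0.12 at the 3 times. With the replicate block 5704 genes were called and 4235 were constant. Other probes of constant genes had the same sign in 2338 of 2949 cases (79.3%), and in 233 of 246 (94.7%) for genes of at least 1. The other alternatives kept each of these counts within 1.5 times, and median scaling moved the higher share of called genes to 36.6%, against 47.5%.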
